A study of Homo sapiens with 2 samples.

Results

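Translation initiation factors (eIF) and elongation factors (eEF) were compared between a temozolomide-resistant clone and its parental line A172, an established human glioblastoma cell line. Temozolomide (TMZ) is an alkylating drug used against this tumour. The resistant library came from the clone A172-r#6, which the labels mark as with TMZ, and the parental library from A172, marked as without TMZ. RNA was sequenced from 1 library per group after stranded mRNA library preparation, so being a single clone, its selection and its drug exposure cannot be told apart, and no difference below has a replicate check. Levels are in FPKM (counted fragments corrected for transcript length and for sequencing depth), and the depth itself is unknown. The factors were taken by gene name, as EIF or EEF followed by a digit. The eIF2 alpha kinases (EIF2AK names) and names ending in P plus digits, which mostly mark pseudogenes, were left out. This gave 58 of 15603 listed genes, of which 57 are protein-coding and fell into 9 complexes or groups. The remaining member was the long non-coding RNA EIF3J-AS1. EIF1AY lies on the Y chromosome, so it was counted and its level is not given. The wording on names ending in P plus digits also removed the listed eIF4E-binding proteins EIF4EBP1 and EIF4EBP2, which are not pseudogenes and are described with the pathway. Of general markers, vimentin (VIM) stood at 804 FPKM in the resistant and 632 in the parental library, and CD44 at 161 and 83.1 FPKM. The neural markers differed in direction, with nestin (NES) at 5.08 and 33.7 FPKM, SOX2 at 0.253 and 2.23 and OLIG2 at 3.42 and 1.43 in the same libraries, and GFAP and S100B, markers of astrocytes, were not analysed here.

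Translation begins when eIF2 brings the initiator tRNA to the small ribosomal subunit, which is loaded with eIF1, eIF1A, eIF3 and eIF5. The eIF4F complex binds the mRNA cap, unwinds the leader and recruits this particle, which scans to a start codon. During elongation, eEF1A delivers aminoacyl-tRNAs, eEF1B recharges eEF1A with GTP and eEF2 moves the ribosome along the mRNA. Stress kinases that phosphorylate the alpha subunit of eIF2 slow initiation by blocking its exchange factor eIF2B, and mTORC1 controls eIF4F through the eIF4E-binding proteins.

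Many mRNAs of the translation machinery start with a C followed by a run of pyrimidines, the 5′ terminal oligopyrimidine (TOP) sequence that LARP1 binds and through which mTORC1 controls translation of these mRNAs. In RefSeq promoter windows (GRCh38.p14, 250 bases before to 50 after each annotated start), 45 of the 58 members were matched by symbol. A C at the annotated start, followed on the coding strand by at least 4 bases that are C or T, was found in 12 of these 45 (26.7%) and in 1404 of all 27305 genes with a window (5.14%). The 27305 were not limited to tested or abundant genes, so the 2 shares do not compare genes of like expression. The 8 sequences below belong to members that the results turn on. Each spans 15 bases before to 15 bases from the start, 5′ to 3′ on the coding strand, and capitals mark the run.
EIF3M, chr11:32583816-32583845, plus strand: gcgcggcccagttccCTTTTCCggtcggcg
EEF2, chr19:3985449-3985478, minus strand: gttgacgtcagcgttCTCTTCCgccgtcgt
EIF3F, chr11:7987322-7987351, plus strand: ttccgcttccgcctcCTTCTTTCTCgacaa
EEF1A1, chr6:73521018-73521047, minus strand: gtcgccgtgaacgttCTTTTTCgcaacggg
EIF2S3, chrX:24054941-24054970, plus strand: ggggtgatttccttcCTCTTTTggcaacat
EEF1B2, chr2:206159880-206159909, plus strand: ccggtctcttcgggtCCTTTTTCCTCTCTT
EIF4A2, chr3:186783562-186783591, plus strand: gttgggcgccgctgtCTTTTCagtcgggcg
EIF2A, chr3:150546772-150546801, plus strand: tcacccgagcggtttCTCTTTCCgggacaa
The other four members with such a start were EIF4B, EIF2D, EIF3D and EIF3K, and the run of EEF1B2 goes on past the printed window. These starts held both the eIF3 subunit with the highest fold, EIF3M, and the factor with the lowest fold of all, EIF2A. The fold of a gene is log2 of (resistant FPKM + 1) over (parental FPKM + 1), and the added 1 shrinks the folds of scarce genes. The median log2 fold was 0.38 over the 12 members with a start run, from -1.05 to 1.17, and 0.35 over the 33 matched members without one, from -0.65 to 1.24. No match says only that these letters are not at the annotated start. With the run allowed to begin within 5 bases of the start, it was found in 22 of the 45 (48.9%) and in 25.2% of all genes. Some of the 33 without a run at the start thus hold one close by.

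Translation factors were abundant in both libraries and, as a group, slightly higher in the resistant one. EIF6, EIF3M and EIF2S2 were at least 2-fold higher in the resistant library, EIF2A was at least 2-fold lower, and 53 members were neither. Of the 58 members, 57 were tested, meaning that they reached 1 FPKM in at least 1 library. EIF2S3L, with 0.647 FPKM in the resistant and 0.690 in the parental library, did not. EIF4E3 passed through the resistant library alone. No member was listed at 0. Among all 13937 tested genes, 4.59% were called 2-fold higher and 3.82% 2-fold lower, so 3 and 1 of 57 members are shares near that background (5.26% and 1.75%). At 1.5-fold, 13 members (22.8%) were higher and 3 (5.26%) lower, against a background of 14.5% and 12.0%. The log2 fold was above 0 for 43 of 57 members (75.4%) and for 53.3% of all tested genes. The median log2 fold was 0.36 over the members and 0.04 over all tested genes, with quartiles of 0.09 and 0.53 over the members. With the resistant library scaled to the sum of the parental one and the pseudocount kept, the median of all genes shifted by -0.098, to -0.056, and the median of members became 0.25, with 41 of 57 above 0. Under that scaling 492 genes were called higher and 646 lower, so 43.2% of all 2-fold calls were higher, against 54.6% as deposited. Members were more abundant than most genes. Among the 4016 genes that reached 20 FPKM in either library, 58.9% had a log2 fold above 0, 16.2% were at least 1.5-fold higher and the median was 0.11. A lower value in bulk RNA cannot be told apart from fewer cells that express the gene.

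The members made up 1.83% of the summed FPKM in the resistant library and 1.44% in the parental one. Of these sums, the 10 EEF members held 2548 FPKM in the resistant and 1712 in the parental library. The 47 EIF members without EIF3J-AS1 held 3363 and 2598 FPKM in the same libraries. Most members were well expressed, with 48 of 58 at 10 or more FPKM in both libraries. Among the 1000 most abundant listed genes there were 23 members in the resistant library and 19 in the parental one.

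**Figure D1:**
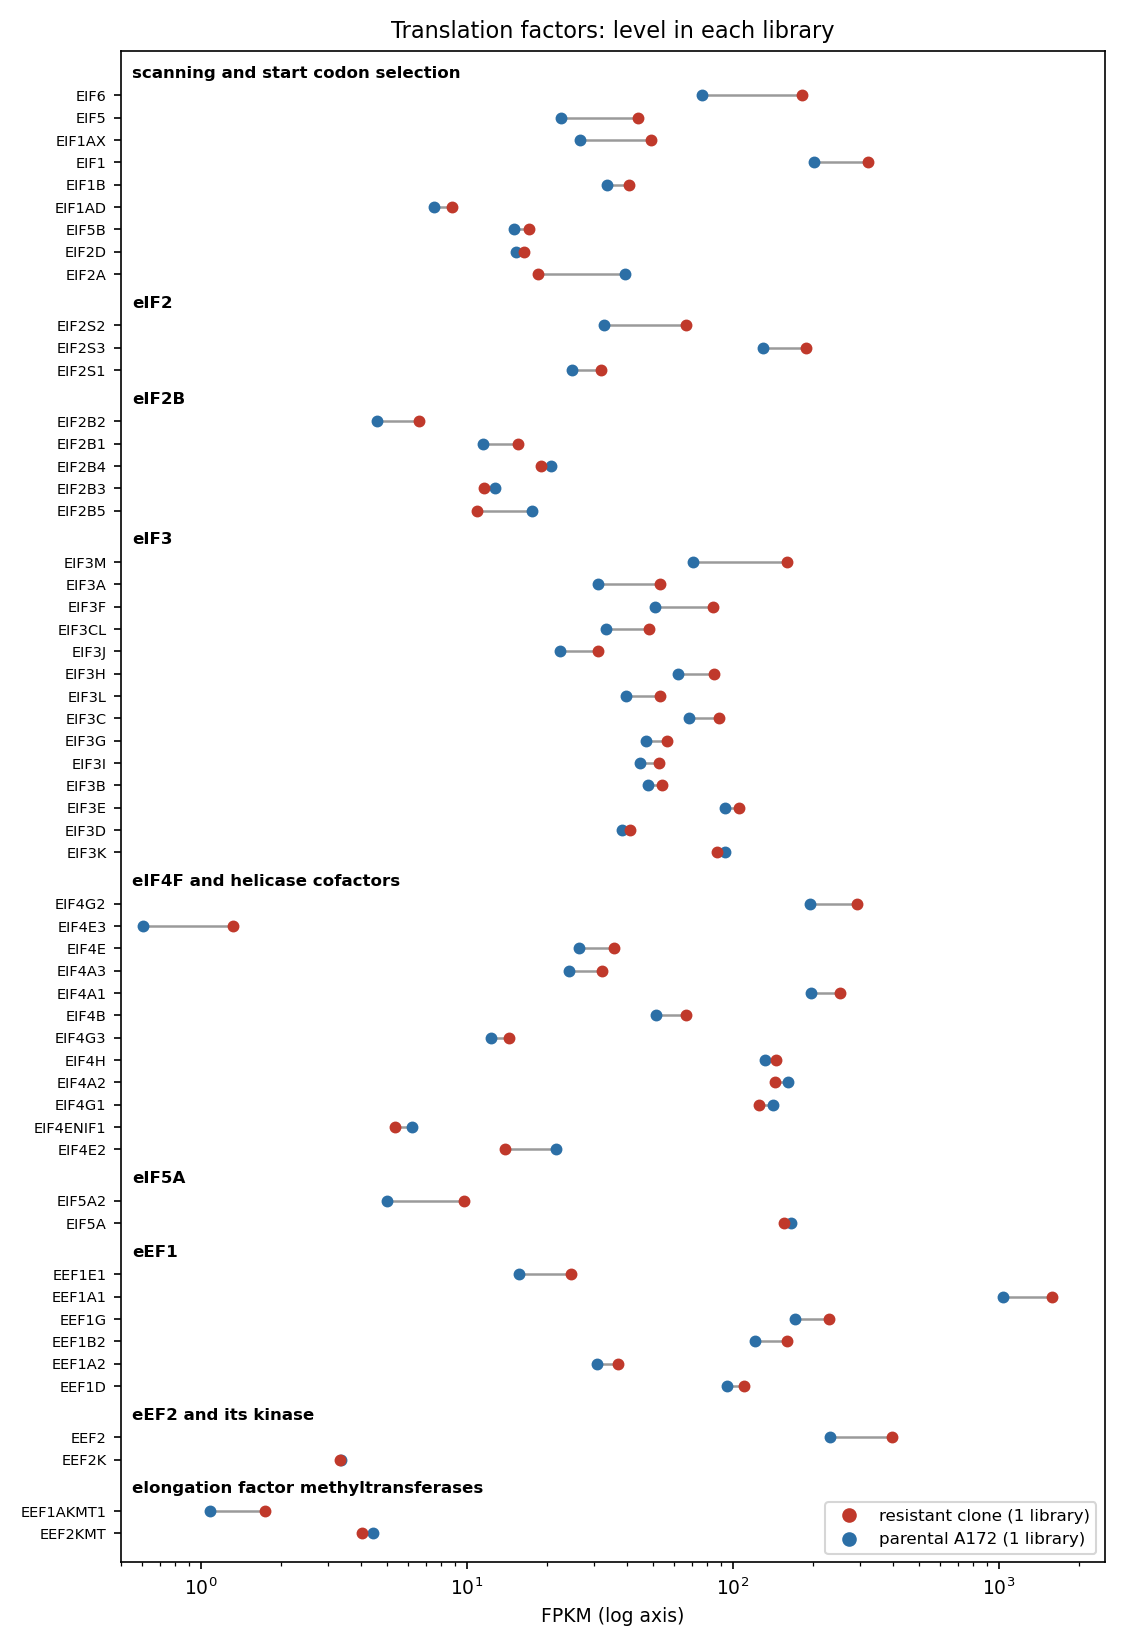
FPKM (log axis) of the translation factors in the resistant clone (red) and in parental A172 (blue), 1 library each, grouped by complex and ordered by fold, with a grey line joining the values of a gene. Red lies right of blue for most factors, with EIF2A, EIF2B5 and EIF4E2 as the widest exceptions; EIF1AY, EIF2S3L and EIF3J-AS1 are not drawn.

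**Figure D2:**
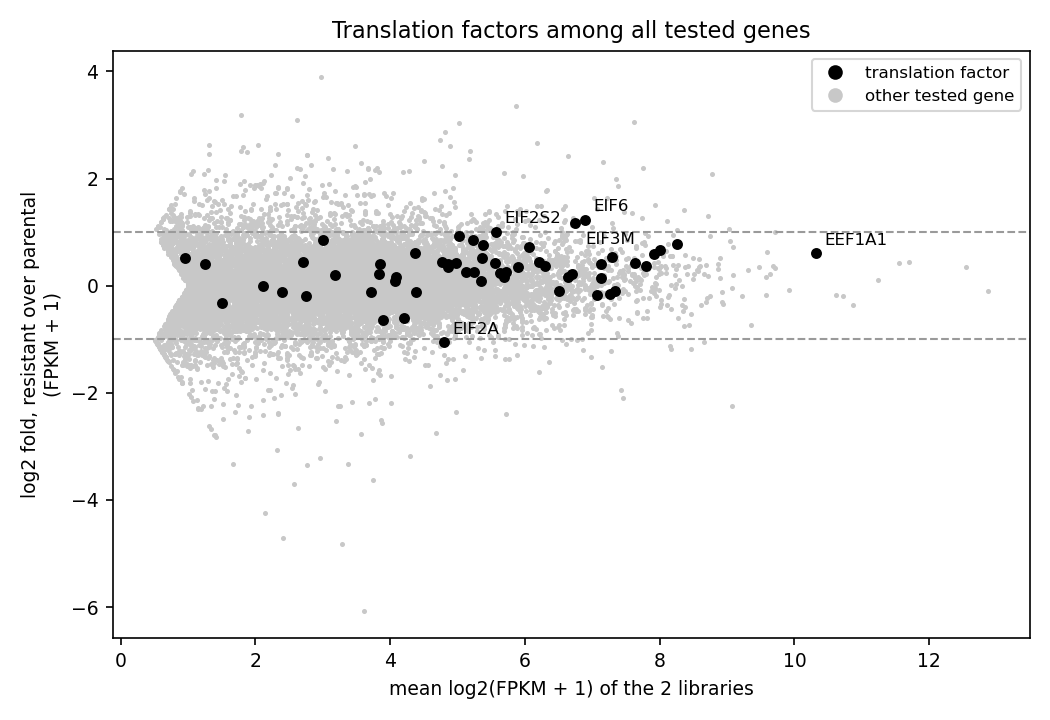
Log2 fold of resistant over parental (FPKM + 1) against the mean log2(FPKM + 1) of the 2 libraries for all tested genes (grey) and translation factors (black), Y-linked genes and XIST left out. Dashed lines mark 2-fold, and 3 factors lie above the upper line and 1 below the lower line.

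In the authors' deposited table, whose test is not stated, 5 members had a q-value under 0.05 and were higher in the resistant library and 1 was lower, against 5.42% and 4.07% of tested genes. EIF6 had the lowest of these q-values in the authors' deposited table, 1.5e-11, followed by 2.99e-05 for EIF3M, 0.0113 for EIF3A, 0.0265 for EIF5, 0.0305 for EEF1A1 and 0.0315 for the lower EIF2A. EIF2S2 had a q-value of 0.0999 in the authors' deposited table. With 1 library on each side, such a q-value speaks of the libraries and not of resistance in general.

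Among the factors of scanning, start codon selection and subunit joining, 4 of 10 were at least 1.5-fold higher and 1 was lower, where the shares over all tested genes were 14.5% and 12.0%. The median log2 fold of these 10 was 0.23, but 0.13 with both libraries scaled to the same sum and 0.67 over those that reached 20 FPKM. EIF6 keeps the large ribosomal subunit from joining the small one too early and is needed to make large subunits. EIF6 (ENSG00000242372, chromosome 20, 35278911 to 35284985, minus strand, GRCh38) had 181 FPKM in the resistant and 76.5 in the parental library, a log2 fold of 1.24. This was the highest fold of all members. Its rank by abundance was 208 in the resistant and 605 in the parental library. Of the 50-base windows in its annotated transcripts, 13.3% also occur in AL121753.1, and reads from those stretches cannot be told apart.

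EIF5, the factor that makes eIF2 hydrolyse its GTP at the start codon, had 43.9 FPKM in the resistant and 22.6 in the parental library (log2 fold 0.93). EIF1, which guards the choice of start codon, had 323 and 203 FPKM in the same libraries (0.67) and was the most abundant factor of this group in both. EIF1AX, the X-linked eIF1A that promotes scanning, had 49.3 FPKM in the resistant and 26.7 in the parental library (0.86). These 3 partners of the scanning particle were 1.5-fold to 2-fold higher, while EIF1B, a close relative of EIF1, differed less, with 40.6 and 33.6 FPKM (0.26). EIF1B therefore made up 11.2% of the EIF1 and EIF1B sum in the resistant library and 14.2% in the parental one.

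EIF2A was the 1 member called lower. Despite its name it is no part of eIF2, but a separate protein that can bring initiator tRNA to the ribosome by an alternative route. EIF2A (ENSG00000144895, chromosome 3, 150546678 to 150584242, plus strand, GRCh38) had 18.4 FPKM in the resistant and 39.2 in the parental library, a log2 fold of -1.05. None of its 50-base windows occurs on the same strand in another annotated gene. EIF2D, which also delivers tRNA to the ribosome outside the eIF2 route, had 16.4 and 15.2 FPKM in the resistant and parental libraries (0.10, and just below 0 with both scaled to the same sum). EIF5B, the GTPase that joins the ribosomal subunits, had 17.1 and 15.1 (0.17), and EIF1AD, a relative of eIF1A, had 8.76 and 7.49 (0.20).

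The 3 tested subunits of eIF2 all had a log2 fold above 0, as did 53.3% of all tested genes, and their median was 0.53. The subunits of its exchange factor eIF2B differed in direction. EIF2S2, the beta subunit, had 66.6 FPKM in the resistant and 32.6 in the parental library. EIF2S2 (ENSG00000125977) lies on chromosome 20 from 34088298 to 34112332 on the minus strand (GRCh38), and its log2 fold of 1.01 was just past the 2-fold threshold. Its fold came under the threshold with both libraries scaled to the same upper quartile (0.93) or the same sum (0.90). It also shares 22.6% of its windows with other genes, mostly with EIF2S2P4, which was listed at 0.664 FPKM in the resistant and 0.239 in the parental library. The member just outside the threshold was EIF5 at 0.93, and on the lower side EIF2A at -1.05 lay inside and EIF2B5 at -0.65 outside.

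EIF2S3, the gamma subunit that holds GTP and the tRNA, had 188 FPKM in the resistant and 130 in the parental library (log2 fold 0.53). EIF2S1, the alpha subunit that stress kinases phosphorylate, had 31.8 and 24.8 (0.35). The order was gamma, beta, alpha in both libraries. Per EIF2S1 transcript level, EIF2S2 stood at 2.09 in the resistant and 1.32 in the parental library, and EIF2S3 at 5.91 and 5.24.

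Of the 5 eIF2B subunits, 2 had a log2 fold above 0 and 3 below it, and the median was -0.12. It was -0.19 with both libraries scaled to the same upper quartile and -0.22 with the same sum. EIF2B5, the epsilon subunit that catalyses nucleotide exchange, had 10.9 FPKM in the resistant and 17.6 in the parental library (log2 fold -0.65). It was the next most abundant subunit after EIF2B4 in the parental library and the fourth of 5 in the resistant one. EIF2B2, the beta subunit, had 6.59 and 4.60 FPKM in the resistant and parental libraries (0.44), and EIF2B1, the alpha subunit, had 15.6 and 11.5 (0.40). EIF2B4, the delta subunit, had 19.0 and 20.7 (-0.12), and EIF2B3, the gamma subunit that works with epsilon, had 11.6 and 12.7 (-0.13). Together the 5 subunits summed to 63.6 FPKM in the resistant and 67.1 in the parental library, while the listed eIF2 members summed to 287 and 188. The level of EIF2B5 over that of EIF2S1 was 0.342 in the resistant and 0.709 in the parental library.

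**Figure D3:**
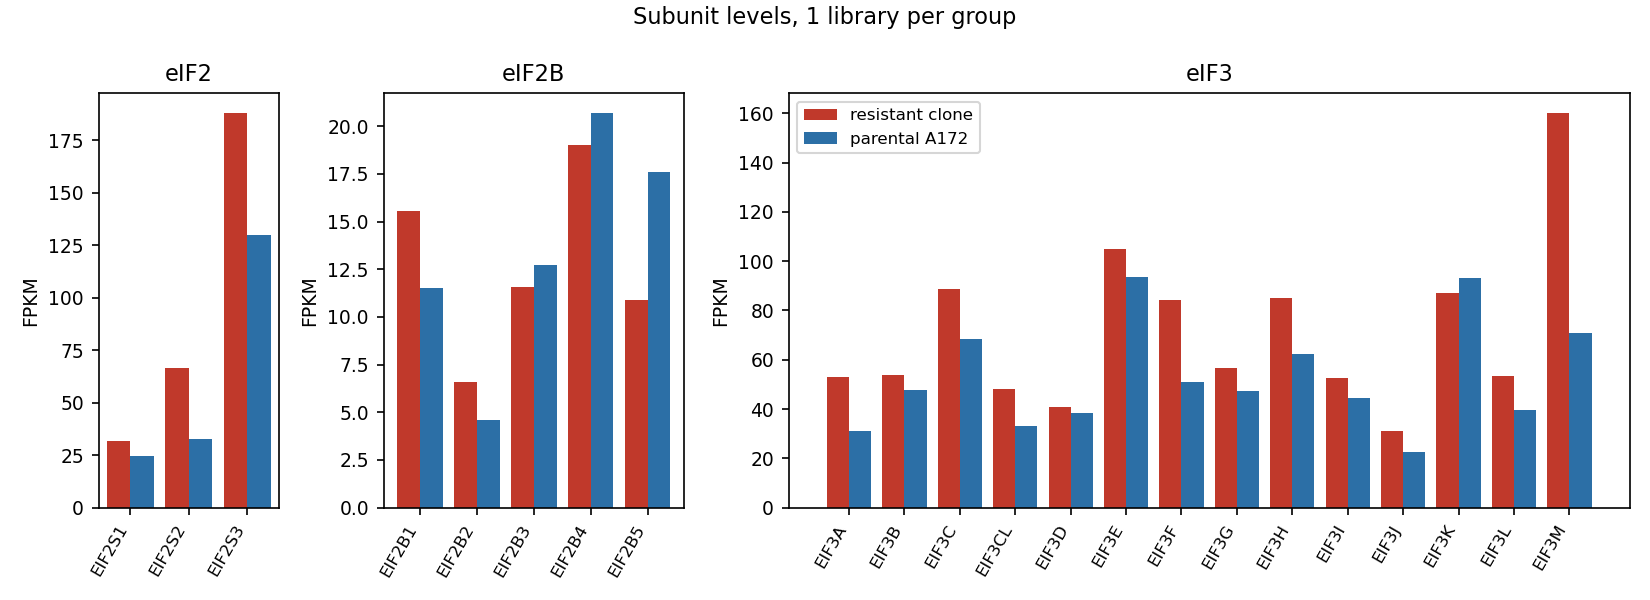
FPKM of the subunits of eIF2, eIF2B and eIF3, with a bar for the resistant clone (red, left) and a bar for parental A172 (blue, right), 1 library each and no error bars; the vertical axes differ between panels. EIF3M has the tallest red bar of eIF3, at 160.0 FPKM, and EIF2B5 is the eIF2B subunit with the widest gap in favour of the parental library.

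The eIF3 complex, the scaffold on the small subunit, was higher in the resistant library for 13 of 14 listed genes (92.9%). Without EIF3CL, a near-copy of EIF3C, this was 12 of 13. The share above 0 was 53.3% over all tested genes and 58.9% over those that reached 20 FPKM. The median log2 fold of the 14 was 0.40. Without the subunits that share 20% or more of their windows with other genes, the median was 0.26. A single subunit, EIF3M, was called 2-fold higher (7.14%) and none lower, against 4.59% and 3.82% of all tested genes. At 1.5-fold, 3 were higher (21.4%) and none lower, against 14.5% and 12.0%. EIF3M (ENSG00000149100, chromosome 11, 32583798 to 32606262, plus strand, GRCh38) had 160.0 FPKM in the resistant and 70.8 in the parental library, a log2 fold of 1.17. It was the most abundant eIF3 subunit in the resistant library and the third in the parental one, after EIF3E and EIF3K. Only 0.194% of its windows occur on the same strand in another gene.

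EIF3A, the largest scaffold subunit, had 53.0 FPKM in the resistant and 31.1 in the parental library (log2 fold 0.75). EIF3F had 84.1 and 50.9 FPKM in the same libraries (0.71). At the other end, EIF3K had 86.9 FPKM in the resistant and 93.4 in the parental library (-0.10), so it was the 1 eIF3 gene below 0. EIF3D, a subunit that can bind the cap of some mRNAs, had 41.0 and 38.3 (0.09), and with both libraries scaled to the same sum its fold fell just below 0. EIF3E had 104.9 FPKM in the resistant and 93.6 in the parental library (0.16), and EIF3B, the other core scaffold, had 53.9 and 47.7 (0.17). The subunits were thus not higher by a common factor: EIF3M stood at 1.84 times the level of EIF3K in the resistant library and at 0.759 times in the parental one.

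The remaining eIF3 subunits lay between these, with log2 folds from 0.23 for EIF3I to 0.53 for EIF3CL. EIF3C and EIF3CL are near-identical copies, and EIF3CL shares 97.2% of its windows with EIF3C, so the split between them is uncertain. EIF3C had 88.8 FPKM in the resistant and 68.4 in the parental library, and EIF3CL 48.3 and 33.2. EIF3L shares 36.0% of its windows with other genes and had 53.3 and 39.5 FPKM. The least abundant subunit in both libraries was EIF3J, which binds the complex loosely, with 31.0 FPKM in the resistant and 22.4 in the parental library. EIF3J-AS1, a gene on the opposite strand next to EIF3J that does not overlap it, had 1.54 FPKM in the resistant and 2.19 in the parental library.

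**Figure D4:**
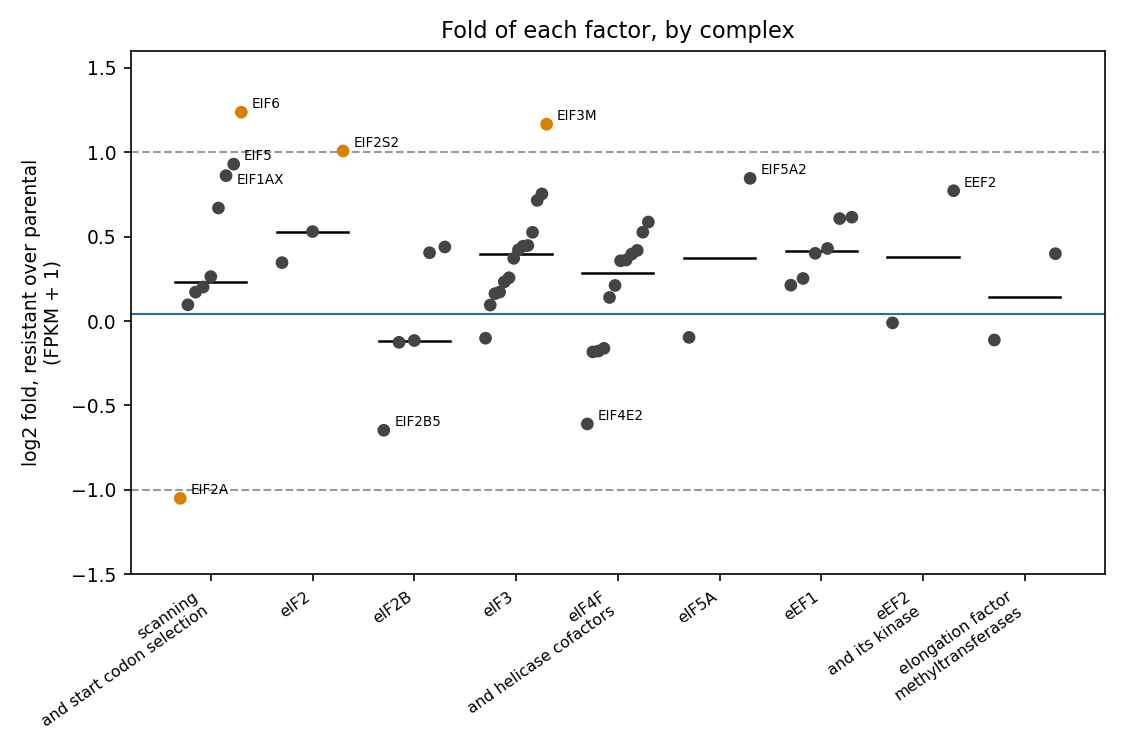
Log2 fold of resistant over parental (FPKM + 1) for the tested translation factors, by complex, with 2-fold calls in orange, the median of each complex as a black bar (EIF1AY counted but not drawn) and the median of all tested genes as a blue line. Dashed lines mark 2-fold; eIF2B is the only group whose median, -0.12, lies below that of all genes at 0.04.

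Of the 12 cap-binding factors and helicases of the eIF4 group, none was called 2-fold higher or lower, where 4.59% and 3.82% of all tested genes were. At 1.5-fold, 1 was higher and 1 lower (8.33% each), against 14.5% and 12.0%. The median log2 fold of the group was 0.28, or 0.18 with both libraries scaled to the same sum. EIF4E, which binds the cap, had 35.6 FPKM in the resistant and 26.4 in the parental library (log2 fold 0.42). EIF4A1, the main RNA helicase, had 252 and 196 (0.36), and 41.0% of its windows occur in other genes. EIF4G1, the scaffold that joins cap-binding protein, helicase and ribosome, had 125 FPKM in the resistant and 141 in the parental library (-0.18). EIF4B and EIF4H, which stimulate the helicase, had log2 folds of 0.36 and 0.14.

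Paralogs within this group differed in direction. EIF4G2, a relative of EIF4G1 that lacks the eIF4E-binding part and serves cap-independent initiation, had 294 FPKM in the resistant and 195 in the parental library (log2 fold 0.59). EIF4G2 stood at 2.35 times EIF4G1 in the resistant library and at 1.38 times in the parental one. EIF4G3 had 14.4 and 12.3 FPKM in the resistant and parental libraries (0.21), which was 10.3% and 8.01% of the EIF4G1 and EIF4G3 sum. EIF4A2 had 144 FPKM in the resistant and 161 in the parental library (-0.16), making 36.4% and 45.1% of the EIF4A1 and EIF4A2 sum.

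EIF4E2, a cap-binding protein that can repress mRNAs because it does not bind eIF4G well, had 13.8 FPKM in the resistant and 21.7 in the parental library (log2 fold -0.61). It made up 28.0% of the EIF4E and EIF4E2 sum in the resistant and 45.1% in the parental library. Of its windows, 22.1% occur on the opposite strand of other genes. EIF4E3, another relative, was scarce, at 1.31 and 0.606 FPKM in the same libraries (0.53), and passed 2-fold with a pseudocount of 0.1. EIF4ENIF1, which carries eIF4E into the nucleus, had 5.34 and 6.20 FPKM (-0.18). EIF4A3, the helicase of the exon junction complex, had 32.2 and 24.2 (0.40).

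The factor eIF5A, which helps ribosomes past difficult peptide bonds and carries the modified residue hypusine, has a common form and a rarer form. EIF5A had 155 FPKM in the resistant and 166 in the parental library (log2 fold -0.10). EIF5A2 had 9.76 and 4.99 FPKM in the same libraries (0.84), under the 2-fold threshold. EIF5A2 made up 5.92% of the pair in the resistant and 2.92% in the parental library, so EIF5A stayed the main form in both. EIF5A shares 15.3% of its windows with other genes, mostly with EIF5AL1.

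All 6 members of the eEF1 group had a log2 fold above 0, as did 53.3% of all tested genes. Their folds ran from 0.21 to 0.61, with a median of 0.42. None was called 2-fold, where 4.59% of all tested genes were called higher and 3.82% lower. At 1.5-fold, 2 were higher (33.3%) and none lower, against 14.5% and 12.0%. With so few genes, such counts say little about the group. Without the members that share 20% or more of their windows the median was 0.25. EEF1A1, the elongation factor that delivers aminoacyl-tRNAs, was the most abundant translation factor by far. EEF1A1 had 1581 FPKM in the resistant and 1038 in the parental library (log2 fold 0.61), ranking 7 and 10 among all listed genes. The difference of 543 FPKM was larger than the resistant level of EEF2, the next most abundant member. EEF1A1 shares 20.4% of its windows with other genes, mostly with the processed pseudogene EEF1A1P5, which was listed at 41.1 FPKM in the resistant and 29.5 in the parental library.

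EEF1A2, the form known from muscle and neurons, had 37.0 FPKM in the resistant and 30.9 in the parental library (log2 fold 0.25). It made up 2.28% and 2.89% of the EEF1A pair in the same libraries. The exchange factor eEF1B has the subunits EEF1B2, EEF1D and EEF1G. EEF1G had 230.0 FPKM in the resistant and 171 in the parental library (0.43), but 95.8% of its windows also occur in other genes, nearly all in AP002990.1. EEF1B2 had 159 and 121 FPKM (0.40), with 31.4% of windows shared, and EEF1D had 110.4 and 95.1 (0.21). EEF1E1, a member of the complex of tRNA synthetases despite its name, had 24.6 and 15.7 FPKM in the resistant and parental libraries (0.61).

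EEF2, the factor that moves the ribosome by a codon, had the highest fold among elongation factors. EEF2 had 397 FPKM in the resistant and 232 in the parental library (log2 fold 0.77), and shares no window on the same strand with another gene. EEF2K, the kinase that inhibits eEF2, had 3.32 and 3.35 FPKM in the same libraries (-0.01). The level of EEF2 over that of its kinase was therefore 119.5 in the resistant and 69.2 in the parental library. EEF2KMT, which methylates eEF2, had 4.03 and 4.44 FPKM (-0.11), and EEF1AKMT1, which methylates eEF1A, had 1.74 and 1.08 (0.40). Further eEF1A methyltransferases stand in the table under older names and were not members: METTL10 (EEF1AKMT2) had 2.65 FPKM in the resistant and 6.03 in the parental library, and METTL21B (EEF1AKMT3) had 3.73 and 2.29.

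Members were set beside the genes that lie next to them. EIF6 and EIF2S2 start 1.19 Mb apart on chromosome 20. The 31 other tested genes starting within 1 Mb of EIF6 had a median log2 fold of 0.15, with 21 above 0 and 10 below. Of these, 2 were called higher and none lower, where 4.59% and 3.82% of all tested genes were called. The 2 were MMP24 (2.17) and GDF5 (1.51), which start at -0.052 and 0.154 Mb from the EIF6 start. Both had higher folds than EIF6 (1.24). The 21 around EIF2S2 had a median of 0.07, with none called. EIF6 and EIF2S2 lay above the median of their neighbours, as did EIF3M, whose 9 neighbours had a median of -0.01. EIF2A lay below the median of its 10 neighbours, -0.02. These members were picked here because they were called 2-fold, so a fold beyond a neighbour median near 0 follows from that choice.

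**Figure D5:**
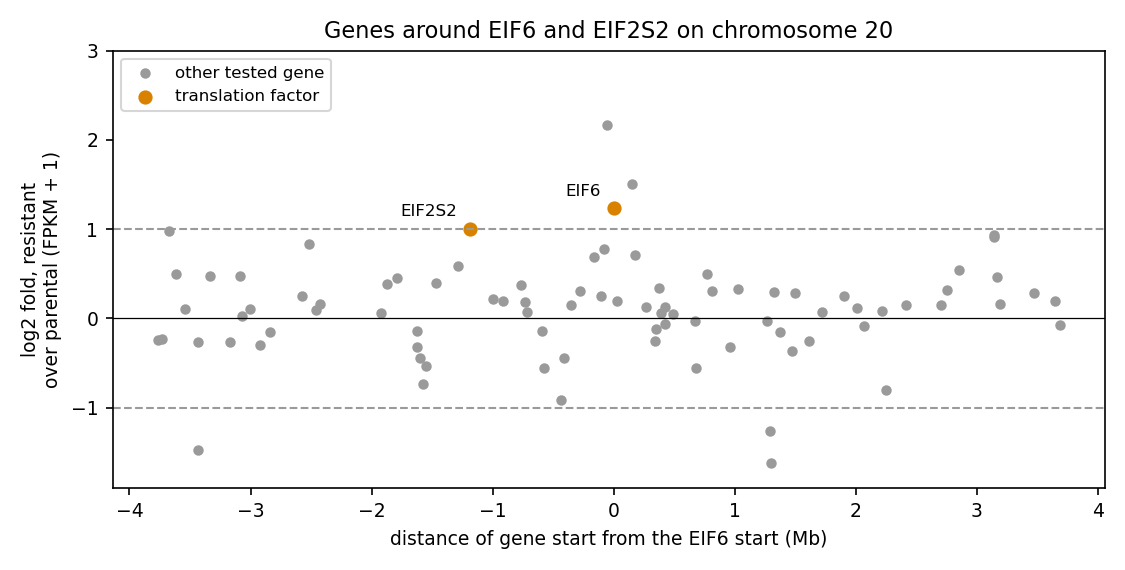
Log2 fold of resistant over parental (FPKM + 1) for tested genes on chromosome 20, against the distance of their start from the EIF6 start in Mb, with translation factors in orange and other genes in grey. EIF6 (1.24) and EIF2S2 (1.01) stand above most of the genes between and around them, but MMP24 (2.17) and GDF5 (1.51) stand higher than both. Dashed lines mark 2-fold.

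Of the other members, some lay among genes that were mostly lower in the resistant library and some among genes that were mostly higher. On chromosome 3, 4 of the 7 members tested had a log2 fold below 0. The median of the 7, -0.16, was close to the -0.17 of all 780 tested genes on that chromosome. The 7 were spread widely, however, from -1.05 for EIF2A to 0.84 for EIF5A2. The neighbours of EIF1B, also on chromosome 3, had a median of 0.42, with 5 above 0 and 2 below. EIF2B5 and EIF4G1 start 0.179 Mb apart. The 24 neighbours of EIF2B5 had a median of -0.48, with 20 of them below 0, and the 24 neighbours of EIF4G1 had a median of -0.55, with 22 below 0. EIF2B5, at -0.65, thus lay near its neighbours and EIF4G1, at -0.18, above them. On chromosome 17, EIF4A1 starts at 7572706 and EIF5A at 7306999, within 1 Mb of each other, so their sets of neighbours overlap. The 66 neighbours of EIF4A1 had a median of -0.39, with 55 below 0, and the 63 neighbours of EIF5A a median of -0.40, with 52 below 0. EIF4A1, at 0.36, and EIF5A, at -0.10, both lay above these medians. EIF2B5, EIF4G1, EIF4A1 and EIF5A were shown here for their low neighbour medians, so a fold above such a median largely follows from that choice. Other regions leaned the other way. All 15 neighbours of EEF2K had a log2 fold above 0, with a median of 0.35. The same held for 18 of the 22 neighbours of EIF5 (median 0.27) and 14 of the 17 of EIF4A3 (0.45). All 4 neighbours of EIF1AX (0.50) and 12 of the 14 of EIF2D (0.36) were also above 0. The part of the surrounding region in the values of these members was not tested.

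The E-box CACGTG is a motif bound by MYC among other factors and equal to its reverse complement. In the RefSeq windows it was found in 11 of the 45 matched members (24.4%) and in 8.77% of all genes with a window. Those genes were again not limited to tested or abundant ones. These 11 had a median log2 fold of 0.26, from -0.18 for EIF4G1 to 0.84 for EIF5A2, and the other 34 had a median of 0.37. EIF4E, EIF4G1 and EIF5A2 each hold this motif in duplicate in a window. The EIF4E copies, in capitals below, start 225 and 72 bases before its annotated start (GRCh38.p14, minus strand).
EIF4E, chr4:98929341-98929370: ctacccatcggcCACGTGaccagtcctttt
EIF4E, chr4:98929188-98929217: ggacatatccgtCACGTGgccagaagctgg
The motif TGATGCA, a core of sites for ATF4 and C/EBP factors, was found on either strand in 1 matched member, EIF3B (2.22%), and in 3.24% of all genes. A match is a description of the sequence and shows no binding.

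Genes of the pathway outside the name rule were taken from lists chosen by function. Of 55 genes in these lists, 54 were listed and 53 tested, 4 were called 2-fold higher and none lower, and the median log2 fold was 0.13. The 4 calls are 7.55% of the tested genes, near the 4.59% over all genes. The 4 were PPP1R15A, MKNK2, SESN2 and DOHH. PPP1R15A, which directs a phosphatase to eIF2 alpha, had 38.0 FPKM in the resistant and 11.6 in the parental library (log2 fold 1.63). In the same list, PPP1R15B had 31.5 and 22.5 FPKM in these libraries (0.46). The phosphatase genes PPP1CB, PPP1CA and PPP1CC had log2 folds of 0.48, 0.31 and -0.11. None of the 4 kinases that phosphorylate eIF2 alpha was called. That says little for so few genes, since 4.59% of all tested genes were called higher and 3.82% lower. EIF2AK3, the kinase of the endoplasmic reticulum known as PERK, had 8.56 and 16.4 FPKM in the same libraries (-0.87), and EIF2AK4, known as GCN2, had 17.5 and 21.7 (-0.30). The log2 folds of EIF2AK1 and EIF2AK2, named to complete the family, were -0.12 and 0.06.

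Of the eIF4E-binding proteins, EIF4EBP1 had 75.5 FPKM in the resistant and 41.5 in the parental library (log2 fold 0.85), and EIF4EBP2 had 16.1 and 24.4 (-0.57). The level of EIF4EBP1 over that of EIF4E was 2.12 in the resistant and 1.58 in the parental library. Of 16 genes of mTORC1 and MNK signalling, 2 were called higher (12.5%) and none lower, against 4.59% and 3.82% of all tested genes. With so few genes, such counts say little about the list. MKNK2, a kinase of eIF4E, had 36.2 FPKM in the resistant and 14.5 in the parental library (1.27), and SESN2, a stress-induced inhibitor of mTORC1, had 25.4 and 10.6 (1.18). RHEB, the activator of mTORC1, had 78.8 and 39.8 FPKM (0.97), and DEPTOR, an inhibitor of it, had 1.28 and 3.51 (-0.98).

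PABPC1, the poly(A)-binding protein that contacts eIF4G, had 285 FPKM in the resistant and 168 in the parental library (log2 fold 0.76), and PABPC4 had 71.4 and 49.2 (0.53). Of their partners, PAIP1, which promotes translation, had 61.0 and 52.6 FPKM in the same libraries (0.21), and PAIP2, an inhibitor, had 33.9 and 45.7 (-0.42). The enzymes that make hypusine on eIF5A differed in direction. DOHH had 11.9 FPKM in the resistant and 4.98 in the parental library (1.11), and DHPS had 26.7 and 36.5 (-0.44).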

How the data were processed

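RNA of 1 resistant and 1 parental sample was sequenced with a stranded mRNA kit, per the labels. The authors deposited FPKM per gene and library, while the aligner, counter, annotation and genome build were not given in the sources used here. That table also holds the authors' log2 ratio (resistant over parental), p-value and q-value, per the file headers, with no test named. Depth is unknown, so no counting interval is given. The listed log2 equalled log2 of the FPKM ratio within 0.001 for all 58 members.

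Folds used a pseudocount of 1. Testing was limited to genes that reached 1 FPKM in at least 1 library, and 2-fold was the threshold for a call. With 1 library per group no p-value was computed. Positions came from GENCODE 29 (GRCh38), whose genes lay inside the listed locus for 56 of 58 members. Windows of 50 bases were compared between all GENCODE 29 transcripts, and sharing of 20% or more was taken as uncertain, which held for 10 members. Promoter windows came from RefSeq (GRCh38.p14). Python 3.11.15, pandas 2.3.3 and NumPy 2.4.6 were used, and the calling rule was tested on simulated data.

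Values were named for members that were called, highest, lowest or most abundant in a complex, central to it or in a paralog pair, with others given in passing. Of each pathway list, called genes and up to 4 with the largest folds were named. For the eIF2 alpha kinases and phosphatase, further genes were named to complete the families. Members and lists were chosen with earlier results of these data known. Alternatives were a pseudocount of 0.1, other filters, other scalings and a threshold of 1.5-fold.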

Additional observations from a re-analysis of the deposited data

How the results depend on the processing

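No paired analysis was possible because each group held 1 library, and no library could be left out. The filter of 20 FPKM, sum scaling with the pseudocount kept and the setting without members that share 20% or more of their windows were chosen after seeing the data. EIF6, EIF3M and EIF2A were called under every scaling and pseudocount tried. Members called higher numbered 2 to 4 at 2-fold across settings, with 1 lower throughout, and 13 and 3 at 1.5-fold. EIF4E3 passed 2-fold with a pseudocount of 0.1, and EIF2S2 lost its call with upper quartile (0.93) and sum scaling (0.91 as TPM, 0.90 with the pseudocount kept). Over all genes, calls numbered 1076 higher and 1029 lower with a pseudocount of 0.1, 2020 and 1674 at 1.5-fold, 466 and 282 with a filter of 5 FPKM, 530 and 608 with upper quartile scaling, 790 and 1076 with TPM, and 226 and 103 with a filter of 20 FPKM. TPM raises all values, so the pseudocount of 1 weighs less there, and with it kept in FPKM the calls were 492 and 646. With TPM the median log2 fold became 0.25 for members, -0.061 for all genes, 0.42 for eIF2, -0.23 for eIF2B, 0.29 for eIF3, 0.18 for the eIF4 group, 0.30 for eEF1 and 0.27 for eEF2 with its kinase. With the pseudocount kept these were 0.25, -0.056, 0.42, -0.22, 0.29, 0.18, 0.30 and 0.28 in the same order, with 0.13 for the scanning group (also 0.13 with TPM) and 0.27 for eIF5A. The median of the elongation factor methyltransferases was 0.25 with a pseudocount of 0.1. With a filter of 5 or 20 FPKM the eEF2 median was 0.77, since EEF2K dropped out. With 20 FPKM the scanning group had 0.67 and the eIF5A group -0.10, since fewer genes were left. Without members that share windows, the medians were 0.25 for members, 0.26 for eIF3, 0.25 for eEF1 and 0.40 for the methyltransferases, because genes were removed. Depth is unknown, so the precision of low values such as EIF4E3 cannot be given.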

Other observations

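Of 8 genes for termination, recycling and reinitiation, none was called 2-fold, against 4.59% higher and 3.82% lower over all tested genes. At 1.5-fold, 3 were higher in the resistant library (37.5%) and none lower, against 14.5% and 12.0%. The median log2 fold of the 8 was 0.30. ETF1, the release factor that reads stop codons, had 84.7 FPKM in the resistant and 55.5 in the parental library (0.60). DENR, which helps ribosomes reinitiate, had 45.5 and 26.9 (0.74), and PELO, which rescues stalled ribosomes, had 11.4 and 6.54 (0.72). None of 10 mitochondrial translation factors was called, where 4.59% of all tested genes were called higher and 3.82% lower. With so few genes, this count says little about the list. MTRF1, a release factor relative, had the lowest log2 fold (-0.66) and MRRF, the recycling factor, the highest (0.44). TUFM, the mitochondrial counterpart of eEF1A, had 73.4 FPKM in the resistant and 54.2 in the parental library (0.43).

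Of the 12 genes set aside as pseudogenes, 5 reached 1 FPKM in either library and none was called, against 4.59% higher and 3.82% lower over all tested genes. EEF1A1P5 was the most abundant of them, and EEF1A1P6 had 5.62 FPKM in the resistant and 3.16 in the parental library. A value of 0 was listed in the resistant library for EIF3KP1, against 0.545 FPKM in parental A172, and for EIF5AP3, against 0.739 FPKM.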
